A study of Mus musculus with 4 samples.

Results

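The comparison described here set the RNA of mouse liver mitochondria of a leptin receptor mutant (db) against that of a leptin mutant (ob). Its members were the features of the quantified gene table with 10 or more counts in the db or the ob library, of any gene type. They numbered 5150 of 37819 features. Levels are given in CPM, counts per 1000000 counts of a library, after scaling by TMM, the trimmed mean of M-values, which allows for a few abundant RNAs taking up a library. A log2 difference is that of log2(CPM + 1), db minus ob, and a feature is called higher or lower in db when it differs by 2-fold or more. A fold is a ratio of scaled counts with its 95% counting interval, which covers counting error only. A count of 0 is set at 3 counts, so its fold is a lower bound.

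Each group was 1 library of total mouse liver mitochondrial RNA at postnatal week 7, depleted of ribosomal RNA. The ob library came from B6.Cg-Lepob/J, which carries the obese allele of the leptin gene on the C57BL/6J background. The db library came from a BKS.Cg stock whose name gives the diabetes allele of the leptin receptor gene (Leprdb) and the BKS background. The strain field gave C57BL/6J for every library, whereas this stock name gives BKS. Receptor against hormone, strain background, animal and library therefore cannot be told apart. The labels used here give neither the sex, the feeding state nor the number of animals, and do not say whether each allele was homozygous. A wild-type C57BL/6J library and a library labelled wild type-NASH (nonalcoholic steatohepatitis) entered the scaling and are given beside the members. With 1 library a group there is no replicate check, and no test or p-value is reported.

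Leptin is a hormone of fat cells that signals through its receptor in the brain to limit feeding and to permit growth, reproduction and energy expenditure. Loss of either the hormone or the receptor leaves the animal overfed, obese and insulin resistant, with a fatty liver. Mutants on the BKS background are known for severe diabetes, whereas the C57BL/6J background is known for milder hyperglycaemia. The liver makes most plasma proteins, and its secreted proteins are translated on endoplasmic reticulum that is often recovered with mitochondria.

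Sequences are shown for 2 pairs of genes whose difference between db and ob is described below. Saa1 and Saa2 encode serum amyloid A, an acute phase protein, and had the largest ratios in favour of db among protein-coding features with 50 or more counts. Their promoters, from 250 bases before to 50 bases after the gene start, are from RefSeq on GRCm38.p6 and lie at chr7:46742931-46743230 on the minus strand and chr7:46751583-46751882 on the plus strand. Capitals mark TTGNGNAA, a pattern of the C/EBP family of liver transcription factors, searched on both strands.
Saa1: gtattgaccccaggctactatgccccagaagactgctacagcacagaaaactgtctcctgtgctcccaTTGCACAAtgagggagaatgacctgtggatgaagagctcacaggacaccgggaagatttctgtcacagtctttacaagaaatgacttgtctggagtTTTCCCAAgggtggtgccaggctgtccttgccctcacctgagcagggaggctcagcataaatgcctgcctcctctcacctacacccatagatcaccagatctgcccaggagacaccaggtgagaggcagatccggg
Saa2: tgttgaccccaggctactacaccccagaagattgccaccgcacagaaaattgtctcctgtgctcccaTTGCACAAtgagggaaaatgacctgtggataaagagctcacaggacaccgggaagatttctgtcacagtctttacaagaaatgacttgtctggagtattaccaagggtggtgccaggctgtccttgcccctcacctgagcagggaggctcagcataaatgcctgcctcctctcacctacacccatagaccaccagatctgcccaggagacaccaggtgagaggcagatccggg

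The aligned promoters shared 287 of 300 bases, or 95.7%. The pattern began 182 and 86 bases before the start of Saa1 and 183 bases before the start of Saa2. It was present in 13.3% of the 32851 promoters of the table, counted per promoter. Counted per gene, with a match in any promoter of the gene, it was present in 7 of the 15 acute phase members that had a promoter there. These were Lcn2, Orm2, Orm3, Saa1, Saa2, Saa4 and Steap4, some of them close copies. The units differ, so the shares cannot be compared and no enrichment is read from them. A match describes the letters of the window and does not show a bound site.

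RNase_MRP and RNaseP_nuc are the RNA components of ribonuclease MRP and ribonuclease P, related enzymes built on many shared proteins that process ribosomal RNA and transfer RNA precursors. They are shown because they differed in opposite directions between db and ob. The sequences are GENCODE M21 transcripts on mm10, at chr4:43492788-43493058 on the minus strand and chr14:50807449-50807767 on the minus strand, and have 271 and 319 bases, of which the first 300 of RNaseP_nuc are printed. No part is capitalised.
RNase_MRP: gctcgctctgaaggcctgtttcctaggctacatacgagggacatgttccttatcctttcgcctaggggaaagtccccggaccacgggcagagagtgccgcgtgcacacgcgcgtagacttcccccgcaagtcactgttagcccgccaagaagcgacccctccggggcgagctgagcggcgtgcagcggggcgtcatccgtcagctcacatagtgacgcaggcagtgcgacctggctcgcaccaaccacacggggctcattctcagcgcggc
RNaseP_nuc: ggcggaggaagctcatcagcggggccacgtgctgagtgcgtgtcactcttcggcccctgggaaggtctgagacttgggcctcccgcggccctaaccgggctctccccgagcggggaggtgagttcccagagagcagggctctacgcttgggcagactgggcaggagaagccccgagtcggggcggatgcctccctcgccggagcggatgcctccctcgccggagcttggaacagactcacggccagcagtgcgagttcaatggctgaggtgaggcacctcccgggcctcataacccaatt

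The db and ob libraries held 1005915 and 1000306 counts, and the wild-type and NASH libraries 627890 and 529815. A count of 3 stands for 2.84 CPM in db, 1.99 in ob, 6.95 in wild-type and 6.15 in NASH. The ob library stood apart: 4744 features reached 10 counts there, against 2895 in db, 1368 in wild-type and 1238 in NASH. Counts lay within 0.01 of a whole number for 53.7% of its detected features, against 85.3% to 89.5% in the other libraries.

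Between db and ob, 1013 features were higher in db (19.7%) and 1582 were lower (30.7%), with a median log2 difference of -0.19 over all 5150. The counting interval excluded equality for 909 of the higher features (17.7%) and 1170 of the lower ones (22.7%). Most of the lower features were low in count. Of the 2255 features that reached 10 counts in ob alone, 1429 were lower in db, and of the 406 that did so in db alone, 308 were higher. Among the 2489 features with 10 or more counts in both libraries the balance was the other way, with 705 higher in db (28.3%), 153 lower (6.15%) and a median of 0.54. Among the 541 features with 100 or more counts in either library, 319 were higher and 51 lower. At the edge of the count filter, the 405 features whose larger count was 10 had a median difference of -0.67, and the 445 just outside, at 9 counts, had -0.28.

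Scaling moved this balance. With plain library totals every ratio was 0.52 lower on the log2 scale, and 408 features were then higher in db and 2222 lower, so that 15.5% of the called features were higher in place of 39.0%. With median-of-ratios size factors every ratio was 0.14 higher. Differences below are therefore best read against features with similar counts. The median was -0.19 over all features and 0.54 over those counted in both libraries. Over those with 100 or more counts in either it was 1.18, with 59.0% higher in db and 9.43% lower. A well-counted gene with a log2 difference near 1.18 thus lay at the middle of features of its abundance. Most shares given beside the lists are not of this last subset.

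**Figure D1:**
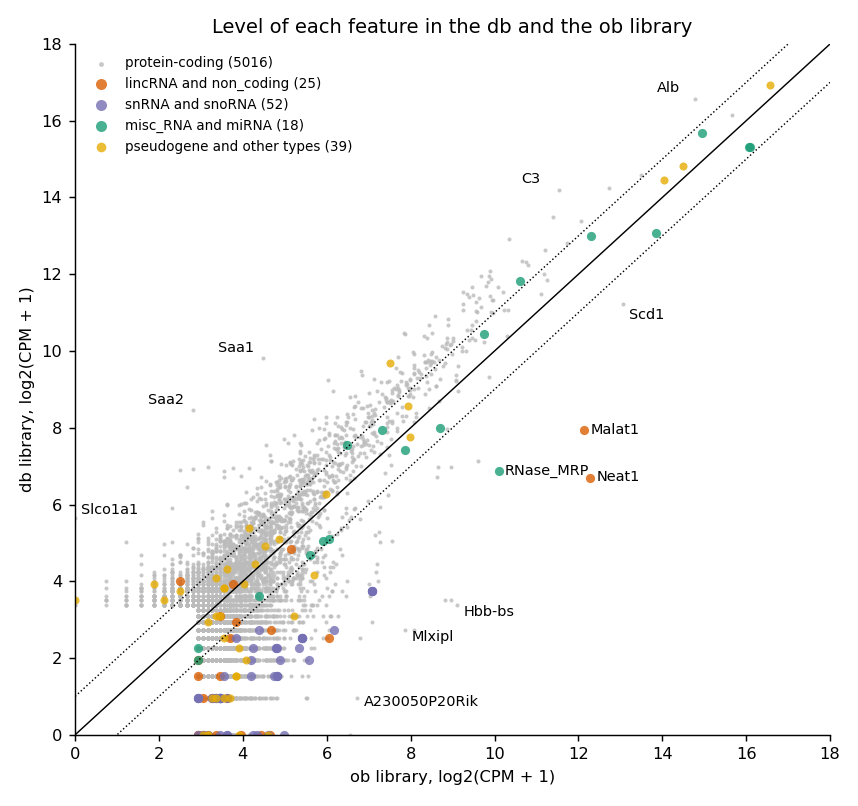
Level of each of the 5150 features in the ob library (horizontal axis) and the db library (vertical axis), both as log2(CPM + 1). The solid line is equality and the dotted lines are 2-fold. Points are coloured by gene type. Abundant protein-coding features lie above equality, while Neat1, Malat1, RNase_MRP and the small nuclear and nucleolar RNAs lie below it.

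Long nuclear RNAs were lower in db. Neat1, the RNA scaffold of nuclear paraspeckles (chr19:5824708-5845478, minus strand), had 109 counts in db and 7450 in ob, with 7 in wild-type and 5 in NASH. Malat1, an abundant RNA of nuclear speckles that lies beside it (chr19:5795690-5802672, minus strand), had 260 counts in db, 6797 in ob, 75 in wild-type and 77 in NASH. The ob library was the high one for both, and db lay above wild-type and NASH for Neat1. Neat1 was 47.9-fold lower in db (39.7 to 58.5) and Malat1 18.3-fold lower (16.2 to 20.8).

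Most lincRNA members were also lower in db. Of 22 lincRNA features, 16 were lower in db (72.7%) and 1 was higher (4.55%), beside 30.7% and 19.7% of all features. Among all features that reached 10 counts in ob alone, 63.4% were lower. The filter thus favours a lower call for such members, and the count only describes them. The higher member was C330006A16Rik, which had 7 counts in ob and 16 in db. Without Malat1 the summed lincRNA level was still 2.54-fold lower in db (2.23 to 2.91). AC136316.1 had 5 counts in db and 99 in ob and was 13.9-fold lower. Gas5, a host gene of small nucleolar RNAs, had 1 count in db and 17 in ob (11.9-fold lower, 1.87 to 498). Snhg11, another host gene, had 3 counts in db and 49 in ob. Meg3, an imprinted RNA, was nearly level at 15 counts in db and 19 in ob. Among processed_transcript features, 1 of 8 was higher in db and 4 lower, and their sum, which includes C4a described below, was 2.59-fold higher in db (2.33 to 2.89).

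Small nuclear and nucleolar RNAs formed the most uniform group. All 26 snRNA features and all 26 snoRNA features past the filter were lower in db. All of these reached 10 counts in ob, and in db 0 of the snRNA and 4 of the snoRNA features did, so the filter favours a lower call and the counts only describe the members. Summed over all annotated copies, snRNA fell from 757 counts in ob to 55 in db, with 33 in wild-type and 34 in NASH, and was 9.66-fold lower in db (7.34 to 12.9). Summed snoRNA had 1643 counts in ob, 107 in db, 41 in wild-type and 108 in NASH, and was 10.8-fold lower in db (8.86 to 13.2). Scaled, the snRNA sum was 52.1 CPM in db, 503 in ob, 76.5 in wild-type and 69.7 in NASH. The snoRNA sum was 101 CPM in db, 1091 in ob, 95 in wild-type and 221 in NASH. The ob library lay above the others for both sums, and db lay near wild-type for snoRNA and below NASH.

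Within these classes the spliceosomal U1 copies were 12.7-fold lower in db (6.94 to 25.8) and the U2 copies 10.4-fold lower (7.29 to 15.4). The U3 copies, which guide ribosomal RNA cleavage in the nucleolus, were 11.1-fold lower (8.41 to 15). The Cajal body RNAs were 9.73-fold lower (6.37 to 15.6), with Scarna2 at 3 counts in db and 70 in ob. Of the 5 U3 features, 4 had the same 202 counts in ob and 13 in db, so their reads cannot be separated. Copies of U1 and U2 cannot be separated either.

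RNase_MRP, the RNA whose sequence is given above, had a scaled level of 115 CPM in db and 1098 in ob, with 85.8 in wild-type and 34.8 in NASH. It was high in ob alone and 9.51-fold lower in db (7.91 to 11.5). RNaseP_nuc had 185 CPM in db and 88.3 in ob, with 197 in wild-type and 174 in NASH. After scaling ob was the low library, and db was 2.1-fold higher (1.68 to 2.64). As a share of all counts RNaseP_nuc took 0.0195% in db, 0.0133% in ob, 0.0135% in wild-type and 0.0160% in NASH, so that ob did not stand apart. Its log2 difference was 1.06, and 0.55 with plain library totals, which is under 2-fold. The related RNAs differed in opposite directions in db and ob, and the sign of neither changed with the scaling.

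Other structural and repeat-derived RNAs differed less. Copies of the signal recognition particle RNA, the scaffold of the complex that docks translating ribosomes on the reticulum membrane, made up 9.43% of counts in db, 23.1% in ob, 11.9% in wild-type and 10.8% in NASH. Scaled, their sum was 1.71-fold lower in db (1.70 to 1.73). The copies of 7SK, a nuclear RNA that holds back transcription elongation, had 264 counts in db and 586 in ob and were 1.56-fold lower (1.34 to 1.81), less than the nuclear RNAs above. Features annotated as copies of a microRNA repeat were 1.65-fold higher in db (1.63 to 1.67), and Mir5105 was 2.34-fold higher (2.22 to 2.46) with 3850 counts in db and 2348 in ob.

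Features that resemble mitochondrial DNA genes, mostly nuclear pseudogene copies that may collect reads of mitochondrial RNA, took 26.3% of counts in db and 28.7% in ob, against 53.2% in wild-type and 75.5% in NASH. None of the 8 past the filter differed by 2-fold between db and ob, and their median difference was 0.35. Both leptin mutants therefore gave a smaller share to these features than the other libraries. With plain library totals the 3 of them that were listed by name had a median of -0.16. Protein-coding features other than these took 57.1% of counts in db and 40.1% in ob.

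**Figure D2:**
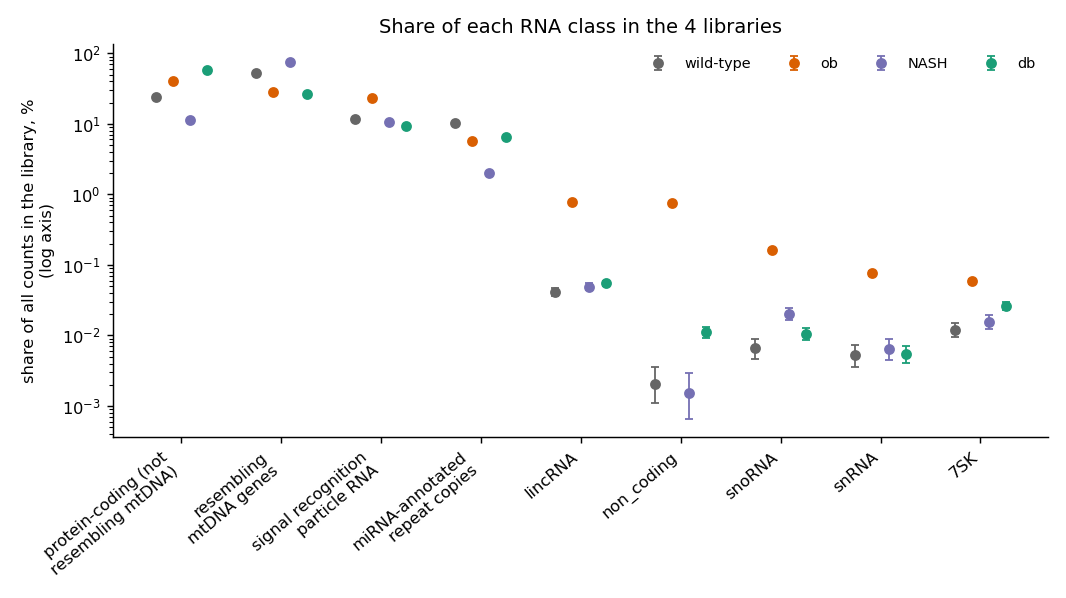
Share of all counts in a library, in percent on a log axis, for 9 RNA classes. Points are libraries and bars are exact binomial 95% intervals, which cover counting error only. The ob library lies above the other libraries for lincRNA, non_coding, snoRNA, snRNA and 7SK, while db and ob lie close for features resembling mtDNA genes.

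Acute phase proteins, plasma proteins that the liver releases on inflammatory signals, were higher in db. Of 24 listed genes in the table, 20 passed the filter, and 17 of them were higher in db and 0 lower, beside 19.7% and 30.7% of all features. The list median was 1.97. Saa1 had 909 CPM in db, 21.2 in ob, 13.9 in wild-type and 2.05 in NASH. Saa2 had 370 counts in db, 9 in ob and 0 in wild-type and NASH. The db library was the high one for both, and the other libraries lay low together.

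Because their transcripts are close copies, reads may be divided between Saa1 and Saa2, and their sum is the firmer value. It was 46.2-fold higher in db (33.9 to 64.7). Saa4, the constitutive member of the family, was 4.48-fold higher with 66 counts in db and 21 in ob. Saa3, the form of macrophages and fat, did not reach 10 counts in either library.

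Haptoglobin (Hp), which binds free haemoglobin, had 7759 CPM in db, 1297 in ob, 1038 in wild-type and 340 in NASH. It was 5.98-fold higher in db (5.69 to 6.29). Serpina3n, a protease inhibitor, had 659 CPM in db, 114 in ob, 123 in wild-type and 38.9 in NASH. Ob and wild-type were close for both genes, and db stood above them. Serpina3n was 5.80-fold higher in db (4.90 to 6.90).

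Other members followed with smaller ratios. Lcn2, which binds bacterial iron carriers, had 67 counts in db and 17 in ob and was 5.62-fold higher (3.26 to 10.2). Fgl1 was 4.73-fold higher, Itih3 4.43-fold, Itih4 3.94-fold and Lbp, the lipopolysaccharide-binding protein, 3.72-fold. Orm1 was 2.98-fold higher and Crp, which rises little in mice, 2.54-fold. The members that stayed within 2-fold were Steap4 at 1.33-fold, Hamp at 1.69-fold and Orm3 at 1.72-fold, all on the side of db. Their deposited annotation to the acute-phase response was read separately: of 21 protein-coding members carrying that term, 14 were higher in db and 3 lower, a set that overlaps the list.

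Secreted hepatocyte proteins as a whole were also higher. All 38 listed genes had 10 or more counts in both libraries. In db, 31 of them were called higher and 0 lower, and the list median was 1.38. The shares were 28.3% and 6.15% for all features counted in both. They rose to 59.0% and 9.43% for features with 100 or more counts in either library, whose median was 1.18. The list median lay near this last value, and the part of abundance in the list's difference was not tested. Albumin (Alb) took the most counts in the list, with 96570 CPM in db, 28170 in ob, 38130 in wild-type and 4562 in NASH. It was 3.43-fold higher in db (3.39 to 3.47). The list kept a summed ratio of 2.75 (2.72 to 2.77) without Alb.

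Complement C3, the central protein of the complement cascade, had 18590 CPM in db, 2985 in ob, 2589 in wild-type and 558 in NASH. It was 6.23-fold higher in db (6.03 to 6.43), with ob close to wild-type. C8b, a subunit of the membrane attack complex, had 130 counts in db and 25 in ob and was 7.41-fold higher (4.80 to 11.9). C6, of the same complex, was 5.06-fold higher (3.37 to 7.80). C4a, annotated as a processed transcript and a close copy of C4b, was 4.55-fold higher (3.97 to 5.24), and C4b 3.03-fold.

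Apolipoproteins differed from each other. Apoa1, the main protein of high-density lipoprotein, had 4199 counts in db and 1227 in ob and was 4.88-fold higher (4.58 to 5.20). Apoe was 2.15-fold higher and Apob, the protein of very-low-density lipoprotein, 2.5-fold. Apoc3 was within 2-fold at 1.39-fold. Apoa4, a lipid-responsive apolipoprotein, had 1354 CPM in db and 1266 in ob, beside 18.5 in wild-type and 101 in NASH. It was nearly equal in the mutants at 1.07-fold (0.998 to 1.15) and lay above the other libraries in both.

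Carriers and iron proteins moved with the secreted group. Rbp4, which carries retinol, was 4.92-fold higher in db (4.57 to 5.30). Transferrin (Trf) was 3.25-fold higher (3.10 to 3.41), and the ferritin heavy chain gene Fth1, whose product is not secreted in the same way, was 3.32-fold higher (2.73 to 4.06). Gm20425, 2.90-fold higher, is annotated on the same strand across Trf and Srprb, so its reads cannot be separated from theirs. Of 12 iron and metal genes past the filter, 7 were higher in db and 0 lower, and of the 9 counted in both libraries 4 were higher and 0 lower, beside 28.3% and 6.15% of all such features.

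**Figure D3:**
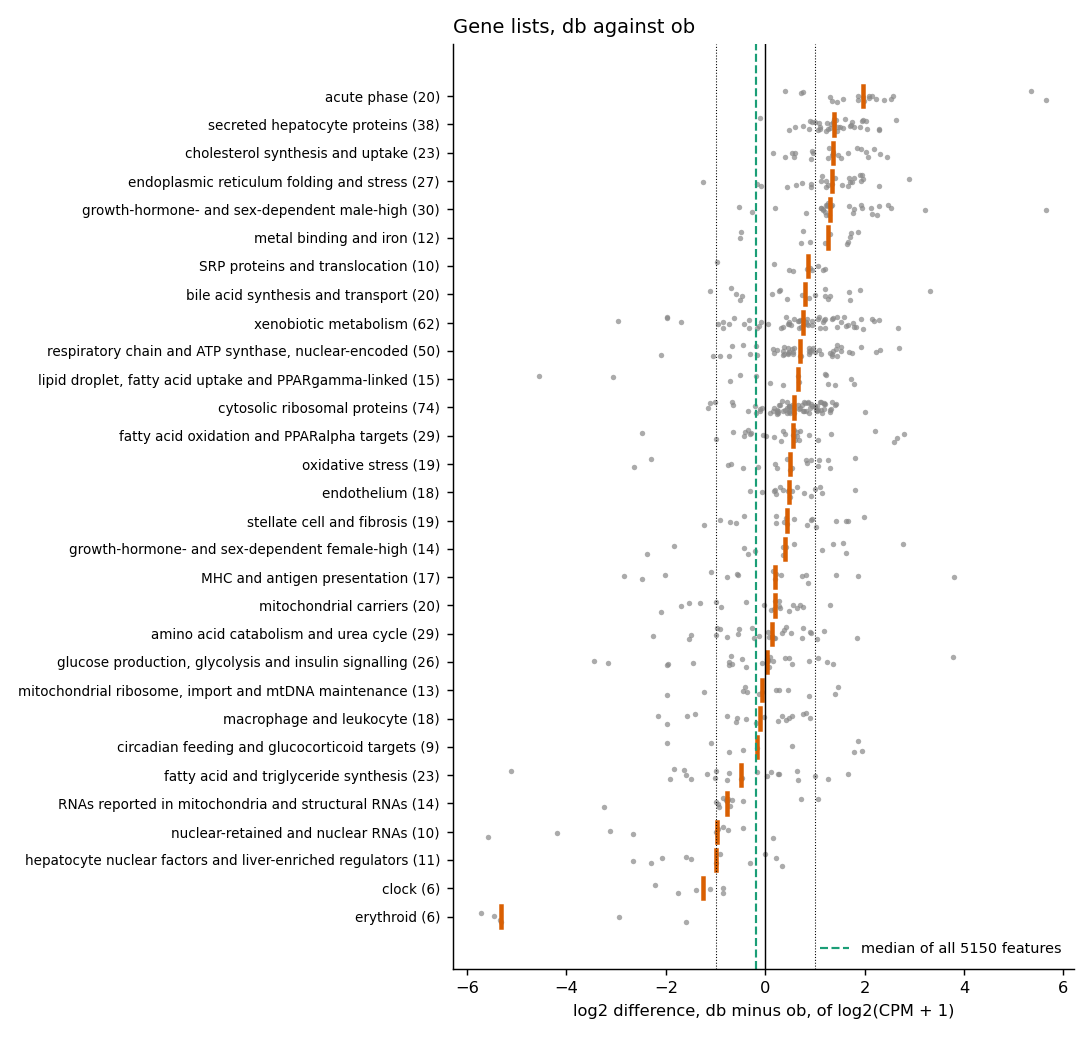
Log2 difference, db minus ob, of log2(CPM + 1) for the members of gene lists with 6 or more members past the filter. Grey points are genes, orange bars list medians, the dashed line the median of all 5150 features and dotted lines 2-fold. Acute phase and secreted hepatocyte lists have the highest medians (1.97 and 1.38), and the erythroid list the lowest (-5.33).

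Genes that growth hormone keeps high in male liver were higher in db. Of 35 listed features, 30 passed the filter, of which 26 were called higher in db and 0 lower. The shares were 19.7% and 30.7% for all features. They were 59.0% and 9.43% for features with 100 or more counts in either library, whose median was 1.18. The list median was 1.30. Its lowest value under the alternative settings was 0.785, which is under 2-fold. Of the 30 members, 15 were major urinary protein features that share reads, all 15 higher. The median of these 15 was 1.24, near 1.18, and the part of abundance in it was not tested. Of the other 15 members, 11 were higher and 0 lower. Among them, 8 of the 11 counted in both libraries were higher, beside 28.3% of all such features. The median of those 11 was 1.92. Slco1a1, an organic anion transporter of male liver, had 52 counts in db and 0 in ob, with 87 in wild-type and 2 in NASH. It was at least 24.7-fold higher in db on a floor of 3 counts in the ob library. The db library held it and ob did not, but scaled db (49.2 CPM) was still below wild-type (202 CPM).

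Cyp4a12a, an androgen- and growth-hormone-dependent fatty acid hydroxylase, had 608 CPM in db, 64.4 in ob, 81.1 in wild-type and 2.05 in NASH. It was 9.43-fold higher in db (7.61 to 11.8), and summed with its close copy Cyp4a12b 8.25-fold higher (6.91 to 9.90). Here db exceeded wild-type as well as ob. The 19 major urinary protein (Mup) features past the filter, which cannot be told apart by short reads, summed to 15509 CPM in db, 6327 in ob, 59637 in wild-type and 1228 in NASH. Both mutants were below wild-type, and db was 2.45-fold above ob (2.39 to 2.51).

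Igf1, the insulin-like growth factor made by the liver under growth hormone, had 235 counts in db and 98 in ob and was 3.42-fold higher. Igfals, the acid-labile subunit that stabilises circulating IGF complexes, was 5.70-fold higher (3.95 to 8.41). Igfbp2, an IGF binding protein that leptin is known to raise in mouse liver, had 86.2 CPM in db, 5.31 in ob, 213 in wild-type and 49.2 in NASH. It was lowest in ob, and db was 16.2-fold higher (7.89 to 38.7).

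The female-high list did not move as a block. Of 14 members past the filter, 5 were higher in db and 2 lower, beside 19.7% and 30.7% of all features. Of the 10 counted in both libraries 3 were higher and 1 lower, near the 28.3% and 6.15% of all such features. The list median of 0.39 turned to -0.10 with plain library totals. A1bg had 13 counts in db, 103 in ob and 0 in wild-type and NASH, and was 5.56-fold lower in db (3.11 to 10.8). Ntrk2 had 3 counts in db and 19 in ob. Cyp2c40, one of several near-identical genes, was 2.98-fold higher (2.25 to 3.97). Of the Y-linked genes, Ddx3y had 14 counts in db and 27 in ob and Eif2s3y 5 and 26. Uty and Kdm5d had 17 and 13 counts in ob but 2 each in db, under the floor, and Xist had 0 in both.

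**Figure D4:**
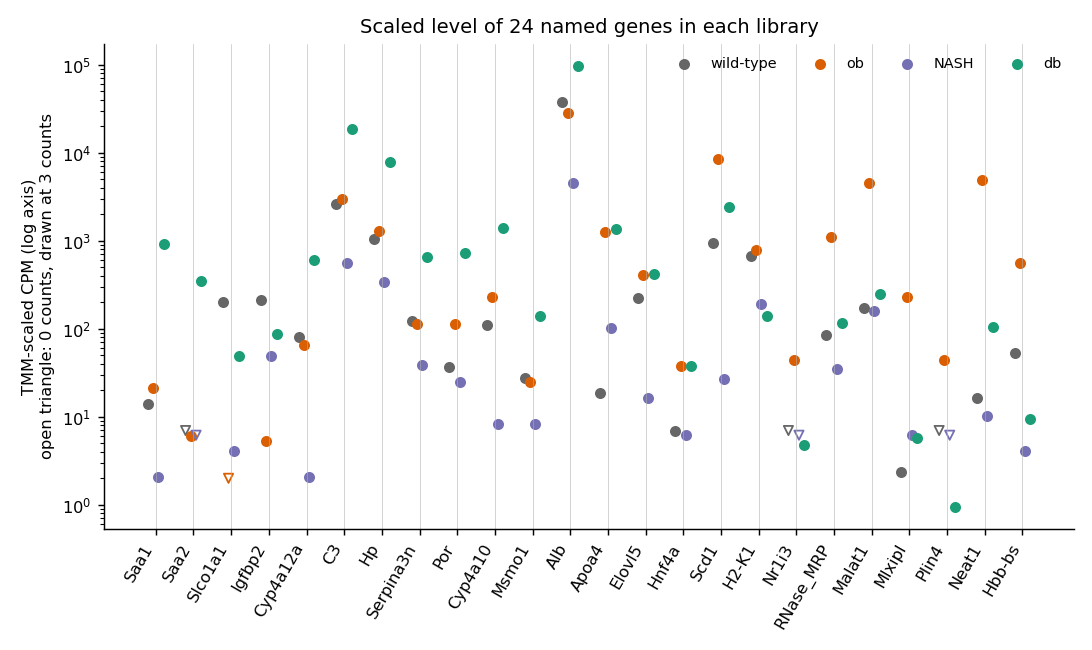
Scaled level in CPM, on a log axis, of 24 named genes in the wild-type, ob, NASH and db libraries. Each point is 1 library, and an open triangle marks 0 counts, drawn at 3 counts. Saa1, Saa2, C3 and Hp are highest in db, Neat1, Malat1, Mlxipl and Hbb-bs are highest in ob, and Apoa4, Elovl5 and Hnf4a lie together in db and ob.

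Lipogenic genes were split, with the main desaturases lower in db. Scd1, stearoyl-CoA desaturase, which makes monounsaturated fatty acids, had 2395 CPM in db, 8571 in ob, 952 in wild-type and 26.7 in NASH. Both mutants were above wild-type, with ob the higher, and db was 3.58-fold lower than ob (3.43 to 3.74). Scd2, its close relative, was 3.78-fold lower (3.08 to 4.68). Mlxipl, which encodes ChREBP, the glucose-sensing factor of lipogenesis, had 6 counts in db, 349 in ob, 1 in wild-type and 3 in NASH, and was 40.8-fold lower in db (18.6 to 112).

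Of 23 fatty acid and triglyceride synthesis genes past the filter, 3 were higher in db and 8 lower, with a median of -0.50. Of the 20 counted in both libraries, 3 were higher and 6 lower, beside 28.3% and 6.15% of all such features. Acly, which supplies cytosolic acetyl-CoA, was 2.88-fold lower with 29 counts in db and 119 in ob. Me1, a source of NADPH, was 2.32-fold lower, and Lpin2, a phosphatidate phosphatase, 3.20-fold lower (2.02 to 5.27). Srebf1, which encodes the insulin-responsive factor SREBP-1, was within 2-fold at 1.41-fold lower. Dgat2, which makes triglyceride, went the other way at 3.22-fold higher (2.61 to 3.98), as did Fads1 at 2.42-fold. Elovl5, a fatty acid elongase, was level at 1.02-fold (0.901 to 1.16).

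Lipid droplet and uptake genes were mixed. Plin4, a lipid droplet coat protein, had 1 count in db, 67 in ob and 0 in the other libraries, which gave a ratio of 47.0-fold lower with a wide interval (8.15 to 1884). Plin2, the main coat protein of hepatocyte droplets, had 27 counts in db and 55 in ob and was within 2-fold. Cidea had 0 counts in db and 11 in ob. Slc27a2, a very-long-chain acyl-CoA synthetase, was 3.44-fold higher in db (3.15 to 3.76), and Cideb 2.36-fold.

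Fatty acid hydroxylases of the Cyp4a family, classical targets of the fatty acid receptor PPARalpha, stood out among oxidation genes. Cyp4a10 had 1394 CPM in db, 232 in ob, 109 in wild-type and 8.2 in NASH. Summed with its close copies Cyp4a31 and Cyp4a32 it was 6.13-fold higher in db (5.50 to 6.84). Cyp4a14 had 4365 CPM in db, 942 in ob and 114 in wild-type, and was 4.63-fold higher (4.36 to 4.92). Both mutants lay above wild-type for these genes, with db the higher.

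The beta-oxidation enzymes did not share that size of difference. Of 29 members past the filter, 6 were higher in db (20.7%) and 1 lower (3.45%), beside 19.7% and 30.7% of all features. Of the 25 counted in both libraries 6 were higher and 1 lower, beside 28.3% and 6.15% of all such features. The share of higher members was thus near that of all features. The higher members were 4 Cyp4a genes, Hadha and Decr2. The 1 gene lower by 2-fold on the log2(CPM + 1) scale was Acaa1a, a peroxisomal thiolase. It had 16 counts in db and 134 in ob and was 5.88-fold lower (3.49 to 10.6). Acadm was 1.65-fold higher with 30 counts in db and 26 in ob, and Acadvl 1.64-fold. Fgf21 and Pdk4, induced by fasting through the same receptor, did not reach 10 counts in either library.

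Genes of cholesterol synthesis and uptake were higher in db. Of 23 past the filter, 15 were higher and 0 lower (median 1.37), beside 19.7% and 30.7% of all features. Of the 19 counted in both libraries, 13 were higher and 0 lower, beside 28.3% and 6.15%. Sqle, the squalene epoxidase, had 32 counts in db and 8 in ob and was 5.70-fold higher (2.57 to 14.3). Msmo1, which demethylates sterols, was 5.66-fold higher (3.93 to 8.36).

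Farther along, Cyp51 was 3.66-fold higher (2.64 to 5.12) and Dhcr7 3.24-fold. The regulator Srebf2 was 2.71-fold higher on 38 counts in db and 20 in ob. Lcat, which esterifies cholesterol in plasma, was 4.13-fold higher (3.25 to 5.31). Hmgcs1, Sc5d and the exporter Abca1 were within 2-fold, all on the side of db.

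Among bile acid genes, 8 of 20 were higher in db and 1 was lower, and of the 18 counted in both libraries 8 were higher and 0 lower, beside 28.3% and 6.15%. Cyp8b1, which sets the balance of bile acids by 12-alpha-hydroxylation, was 3.25-fold higher (2.85 to 3.72). Slc10a1, the uptake transporter, was 3.77-fold higher (3.18 to 4.47). Cyp7a1, the rate-limiting enzyme of the pathway, had 57 counts in db and 67 in ob and was level at 1.21-fold. Slco1a4, an uptake transporter of bile acids and drugs, had 116 CPM in db, 10.6 in ob, 30.1 in wild-type and 12.3 in NASH, and was 10.9-fold higher in db (6.43 to 19.6). The canalicular exporter Abcc2 was nearly level at 1.10-fold (0.989 to 1.22).

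Among genes of glucose handling, 4 of 26 were higher in db and 5 lower, beside 19.7% and 30.7% of all features, and the median of 0.04 changed sign with the scaling. All 5 lower members had under 10 counts in db, and of the 18 counted in both libraries 3 were higher and 0 lower. Pck1, of gluconeogenesis, had 169 counts in db and 166 in ob, within 2-fold. Slc37a4 and Slc2a2, which move glucose 6-phosphate and glucose, were 2.39-fold and 2.59-fold higher. The insulin receptor gene Insr was 2.1-fold higher on 137 and 93 counts, while the insulin receptor substrates Irs1 and Irs2 had 5 and 1 counts in db against 22 and 10 in ob.

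Among drug-metabolising genes, 24 of 62 past the filter were higher in db and 4 lower, with a median of 0.76. Of the 52 with 10 or more counts in both libraries, 21 were higher and 0 lower, beside 28.3% and 6.15% of all such features. Por, the reductase that passes electrons to all microsomal cytochromes P450, had 717 CPM in db, 112 in ob, 37.1 in wild-type and 24.6 in NASH, and was 6.39-fold higher (5.40 to 7.59). Cyp2e1 was 3.89-fold higher on 3766 and 1380 counts, and Cyp2c37 4.93-fold (3.91 to 6.27). Nr1i3, which encodes the sensor CAR, had 5 counts in db, 66 in ob and 0 in the other libraries, and was 9.26-fold lower (3.77 to 29.5). Its relative Nr1i2, encoding PXR, had 6 counts in db and 31 in ob.

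The glucuronosyltransferase locus Ugt1a gave a contrast within itself. Ugt1a8, Ugt1a7c, Ugt1a10 and Ugt1a2 had 126 to 131 counts each in db and 7 to 19 in ob, and 22 each in wild-type. These genes share their last exons and overlap on 1 strand, so their near-equal counts cannot be taken as independent values. Their sum was 15.6-fold higher in db. Its interval (11.6 to 21.5) takes the shared reads as separate counts and may be too narrow. Ugt1a1, the bilirubin-conjugating member that also shares those exons, had 383 counts in db and 524 in ob. It was level at 1.04-fold (0.911 to 1.19). How reads of the shared exons were divided is not known, so transcript level and read division cannot be told apart.

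Chaperones and folding enzymes of the endoplasmic reticulum were higher in db. Of 27 past the filter, 19 were higher and 1 lower (median 1.35), and of the 24 counted in both libraries 17 were higher and 0 lower, beside 28.3% and 6.15%. Calr, a calcium-binding chaperone, had 1293 CPM in db, 334 in ob, 392 in wild-type and 123 in NASH, and was 3.87-fold higher (3.49 to 4.30). Hyou1 was 3.85-fold higher (3.20 to 4.64), P4hb 2.93-fold and Hspa5, the chaperone BiP, 2.22-fold. The stress transcription factors differed from the chaperones: Atf4 had 5 counts in db and 19 in ob, and Xbp1 and Ern1 were within 2-fold. Ddit3 did not reach 10 counts.

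Nuclear-encoded mitochondrial proteins showed no single direction. Of 50 respiratory chain and ATP synthase genes past the filter, 18 were higher in db and 2 lower, with a median of 0.70. Of the 31 with 10 or more counts in both libraries, 9 were higher and 1 lower (median 0.56), close to the 28.3% and 0.54 of all features counted in both. Cox8a, a small subunit of cytochrome oxidase, had 33 counts in db and 6 in ob and was 7.84-fold higher (3.24 to 22.9). Cox6a1 was 4.93-fold higher (3.10 to 8.12). The catalytic ATP synthase genes Atp5b and Atp5a1 were within 2-fold on 83 and 80 counts in db.

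Of 20 mitochondrial carrier genes, 1 was higher in db and 4 lower, beside 19.7% and 30.7% of all features. Of the 18 counted in both libraries 1 was higher and 2 lower, beside 28.3% and 6.15% of all such features. Slc25a51, the carrier of NAD+, had 12 counts in db and 59 in ob and was 3.45-fold lower (1.83 to 7.05). Slc25a22 was 3.0-fold lower and Slc25a39 2.51-fold higher. Across the 551 protein-coding members annotated to the mitochondrion, 99 were higher in db and 103 lower, beside 19.7% and 30.7% of all features. Their median was 0.06. Among the 324 of these counted in both libraries, 63 were higher and 16 lower, beside 28.3% and 6.15% of all such features. Their median of 0.38 lay under the 0.54 of all features counted in both. Cytosolic ribosomal protein genes had 21 of 74 higher and 3 lower, with a median of 0.57. Of the 64 counted in both, 17 were higher and 0 lower, a share of higher members near the background of 28.3%.

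Genes of the major histocompatibility complex on chromosome 17 differed in both directions. H2-K1, a classical class I gene, had 139 CPM in db, 782 in ob, 663 in wild-type and 191 in NASH, and was 5.62-fold lower in db (4.73 to 6.72). Summed with its close relative H2-D1 it was 1.54-fold lower (1.41 to 1.68). H2-Ab1, of class II, had 3 counts in db and 40 in ob, and H2-Aa 7 and 45. H2-Q2 went the other way with 33 counts in db, 2 in ob and 0 in wild-type and NASH, and H2-Q4 was 3.76-fold higher (2.54 to 5.69). B2m, the invariant class I chain, was level at 1.12-fold. The BKS and C57BL/6J backgrounds are known to carry different haplotypes of this highly variable region, and reads were aligned to the C57BL/6J reference, so level and sequence difference cannot be told apart. Gm11127, a class I-like gene on the same chromosome, was 9.89-fold higher in db (5.83 to 17.9).

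Haemoglobin genes had the lowest list median in db. Hbb-bs had 9.47 CPM in db, 551 in ob, 53.3 in wild-type and 4.10 in NASH. Hba-a1 and Hba-a2, which have near-identical transcripts, summed to a level 45.7-fold lower in db (30.1 to 73.2), and Hbb-bs and Hbb-bt to 54.2-fold lower (33.2 to 95). Alas2, the haem synthesis enzyme of red cell precursors, had 3 counts in db and 43 in ob. All 6 erythroid genes past the filter were lower in db, beside 30.7% of all features. Only 3 of them were counted in both libraries, and all 3 were lower, beside 6.15% of all such features. The rest reached 10 counts in ob alone, where the filter favours a lower call, and close copies are not independent. The list summed to 45.4 CPM in db, 1823 in ob, 195 in wild-type and 32.8 in NASH. The ob library was the highest for this sum, as for Neat1, Malat1 and the summed snRNA and snoRNA. The db library differed between them. It lay below wild-type for the erythroid and snRNA sums, but above it for Neat1 (103 CPM against 16.2) and Malat1 (246 against 174). The part of the haemoglobin genes in the other differences was not tested. In bulk RNA, fewer cells of a type and less RNA per cell cannot be told apart.

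Other cell types differed little. Of 18 macrophage and leukocyte genes past the filter, 0 were higher in db and 4 lower (22.2%), beside 19.7% and 30.7% of all features. All 4 reached 10 counts in ob alone, where the filter favours a lower call. Of the 13 counted in both libraries, 0 were higher and 0 lower, beside 28.3% and 6.15% of all such features. The list summed to 755 CPM in db and 703 in ob, beside 2626 in NASH. Clec4f, of Kupffer cells, was 1.87-fold higher (1.48 to 2.37) and Cd74 1.73-fold lower (1.27 to 2.36). The endothelial list summed to 619 CPM in db and 442 in ob. Of 19 stellate cell and fibrosis genes, 5 were higher in db and 1 lower, beside 19.7% and 30.7% of all features. Of the 14 counted in both libraries 3 were higher and 0 lower, beside 28.3% and 6.15% of all such features. Their median of 0.51 was close to the 0.54 of those features. The list sum was 1.64-fold higher (1.5 to 1.80). Col4a2, a basement membrane collagen gene, was 4.05-fold higher (2.93 to 5.69). No listed gene of pancreas or fat cells reached 10 counts in db or ob, and hepatocyte genes such as Alb and Trf were high in both.

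The mutated loci gave little reading of genotype. Lep had 0 counts in every library, which is usual for liver and checks nothing. Lepr had 2 counts in db, 4 in ob and 0 elsewhere, within the floor for db, so the receptor mutation could not be checked at this depth. Nnt, the mitochondrial transhydrogenase in which C57BL/6J is known to carry a deletion, had 47 counts in db, 32 in ob, 1 in wild-type and 0 in NASH. The ob library thus held Nnt counts, and gene-level counts do not show which exons they cover. Stat3, the transcription factor below the receptor, had 5 counts in db and 20 in ob.

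Beside the haemoglobin genes, several of the largest ratios in favour of ob fell on genes with few counts in the other libraries. A230050P20Rik had 1 count in db, 158 in ob and 0 in wild-type and NASH, 111-fold lower with an interval of 19.6 to 4406. Mid1, an X-linked ubiquitin ligase gene, had 0 counts in db, 141 in ob, 0 in wild-type and 1 in NASH, and was at least 33.0-fold lower. Tnrc6a, of microRNA-mediated silencing, had 1 count in db and 68 in ob. Col5a3, a fibrillar collagen gene, had 5 counts in db and 165 in ob and was 23.2-fold lower (9.72 to 72.2). Zfp488, Zfc3h1, Setd5, Nsd3 and Srsf11, which encode nuclear proteins, had 2 to 7 counts in db and 52 to 202 in ob.

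Transcription factor genes of the liver had low counts. Of 11 listed regulators past the filter, 0 were higher in db and 5 lower. All 5 reached 10 counts in ob alone, where 63.4% of all features were lower, so no direction is read from them. Nr5a2 had 1 count in db and 17 in ob, Stat5b 2 and 17, and Prox1 9 and 39, the last 3.04-fold lower (1.45 to 7.14). Hnf4a, by contrast, was equal at 37.9 CPM in each (1.0-fold, 0.651 to 1.53), and Cebpa was 1.18-fold higher. The median of the list, -0.99, turned to 0.11 among the 4 members with 10 or more counts in both libraries. Of 6 clock genes past the filter, 4 were lower in db and likewise passed through ob alone, Clock among them with 4 counts in db and 32 in ob (5.61-fold lower, 1.99 to 21.9). Only Nr1d2 had 10 counts in both.

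The place of the encoded protein, by deposited gene ontology terms, separated the protein-coding members. Of 213 annotated to the extracellular space, 118 were higher in db and 8 lower, with a median of 1.09. Of 286 annotated to the endoplasmic reticulum, 108 were higher and 22 lower (median 0.73). Of 95 annotated to the lysosome, 34 were higher and 8 lower. The nucleus term had 1398 members, of which 118 were higher and 605 lower (median -0.78). DNA binding had 15 higher and 203 lower of 386, RNA splicing 0 higher and 34 lower of 59, and nuclear speck 2 higher and 39 lower of 60, beside 20% higher and 29.8% lower among all 5016 protein-coding members.

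Among members with 10 or more counts in both libraries, the extracellular space term had 105 of 178 higher and 2 lower, with a median of 1.13. The nucleus term then had 58 higher and 52 lower of 506, and a median of 0.15, against 0.55 for all 2448 such protein-coding features. Of those 2448 features, 701 were higher and 145 lower. DNA binding had 6 higher and 12 lower of 105, with a median of 0.08. RNA splicing had 0 higher and 7 lower of 22, and nuclear speck 1 higher and 5 lower of 15. The gap between extracellular and nuclear terms remained in this subset, while the nuclear median changed sign. Features of any type with 100 or more counts in either library had a median of 1.18, with 59.0% higher and 9.43% lower. The extracellular medians lay near that value, and the part of abundance in the gap was not tested.

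Transcript length went with the difference too. For 5002 of 5016 protein-coding members an exonic length of the longest GENCODE transcript was found. In the shortest 20% of members, with a median of 1612.5 bases, 382 were higher in db and 103 lower, and the median log2 difference was 0.71. In the longest 20%, with a median of 7864 bases, 72 were higher and 487 lower, and the median was -0.99. Spearman's rank correlation across genes was -0.39 for all and -0.34 among the 2444 with 10 or more counts in both libraries. It is given as a description, since genes of a library share its depth and preparation.

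Length and place overlapped without being the same. Within the shortest 20%, members annotated to the nucleus had a median of 0.41 and the others 0.76, and within the longest 20% -1.22 and -0.80. Among genes counted in both libraries, the longest 20% had -0.46 for the nucleus term and 0.12 for the others. Their part in each other and in the difference between db and ob was not tested.

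**Figure D5:**
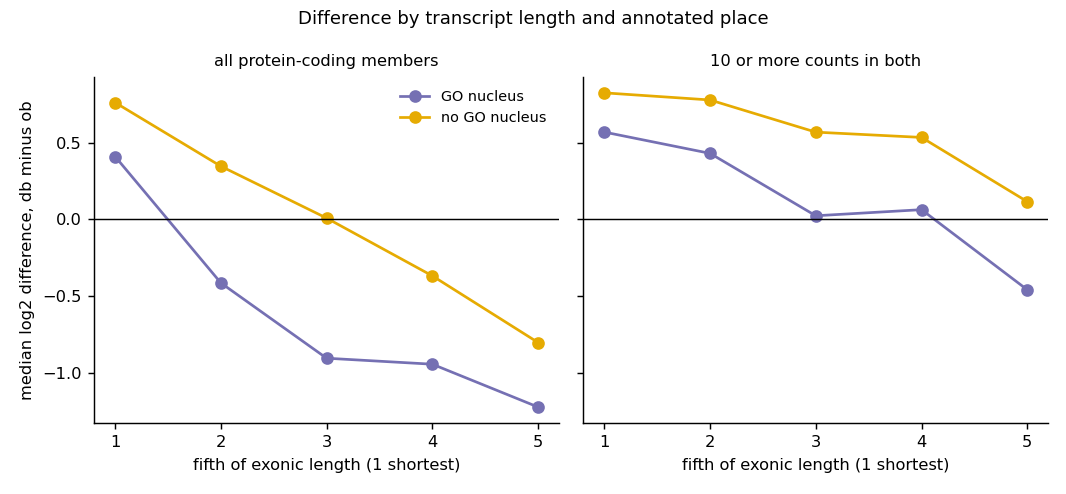
Median log2 difference, db minus ob, in 5 equal groups by exonic length, from shortest to longest, for protein-coding members with and without the gene ontology term nucleus. The left panel shows all members, the right panel those with 10 or more counts in both libraries. Medians are lower in the longest than in the shortest group, and lower for the nucleus term in every group of both panels.

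The wild-type library shows on which side the db to ob differences lay. Of the 437 features higher in db with 50 or more counts there, the wild-type level was within 2-fold of ob but not of db for 234, and within 2-fold of db but not of ob for 41. C3, Hp and Serpina3n are among the former and Igfbp2 is nearer db. Of the 172 features lower in db with 50 or more counts in ob, the wild-type level was within 2-fold of db but not of ob for 99, and of ob but not of db for 13. Malat1 and RNase_MRP are among those near db, and H2-K1 among those near ob. Wild-type has the same strain as ob and its scaling differs from both, so these counts describe the libraries only.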

How the data were processed

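Total RNA of liver mitochondria was depleted of ribosomal RNA and made into directional libraries, per the labels' protocols. The submitters' processing notes name bcl2fastq 2.20, Trimmomatic 0.32, TopHat2 2.1.1, Bowtie2 2.3.2 and mm10. The sources used here do not name a counting program or its strand setting. Per the file headers, the authors deposited raw expected counts and TMM-normalized log2 values. The counts are not all whole. They were rounded and scaled by TMM (edgeR 4.0.16) over all 4 libraries, on features with 10 or more counts in any. Folds have exact binomial 95% intervals. The library is the only sample of its group, so no test was possible. The fold calculation was tested on simulated data.

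Members and gene lists were chosen with earlier results of these data known. Named were the 15 largest ratios each way among protein-coding features (50 or more counts), 5 among other types (30 or more), the 10 most abundant features of each library and of those nearly level between db and ob, up to 5 of each list, and Lep, Lepr, Nnt and sex-linked genes. Other list members, transcript classes and non-coding RNAs named were chosen after their values were seen. Of 37819 feature IDs, 36049 matched GENCODE M21. Features resembling mitochondrial DNA genes had transcripts at 85% or more identity over 50% or more of their length. Some members that this rule names are not reported here.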

Additional observations from a re-analysis of the deposited data

How the results depend on the processing

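With 12 alternatives, all 143 named features called at 2-fold kept their sign wherever they passed the filter, and 111 stayed past 2-fold throughout. Of 35 list medians, 22 kept their sign. The reported values are 1013 features higher in db, 1582 lower and a median of -0.19. Against them, plain library totals gave 408 higher and a median of -0.67, and median-of-ratios size factors gave a median of -0.072. Without a filter, 2052 were higher and 3768 lower. With 50 or more counts in db or ob, 437 features were higher, 172 were lower and the median was 0.86. With 10 or more in both, 153 were lower and the median was 0.54. A pseudocount of 5 CPM left 1019 lower.

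No paired analysis was possible because each group has 1 library, and for the same reason leaving out a replicate was not done. Depth limits features near 10 counts, whose intervals are wide.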
